A study of Homo sapiens with 24 samples.

Results

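A set of 46 genes that act in mitosis and chromosome segregation was followed across 3 stable lines of MCF10A, an established human mammary epithelial cell line that does not form tumours. The members were listed by gene symbol (mitotic kinases and cyclins, checkpoint proteins, anaphase regulators, kinetochore, passenger complex, spindle and cytokinesis proteins, and a topoisomerase) and looked up among all probes of an Illumina BeadChip that passed a detection limit. All 46 were measured, among 12357 genes in all, through 71 of 72 member probes. The probe used for each was detected on all 24 arrays. The list was chosen with earlier results of these data known, so its shares against all genes are not independent of the data. The vector line carried an empty control vector. The CYT1 and CYT2 lines stably expressed ERBB4, a receptor tyrosine kinase of the EGF receptor family, as its CYT-1 or its CYT-2 cytoplasmic isoform. By the series title these are full-length JM-a receptors, although the characteristics of the samples write ICD beside the isoform. All cells went without serum for 48 h, after which NRG1 (neuregulin 1, a ligand of ERBB4) was given or not given for 2 h. This made 6 groups of 2 biological samples, with 2 technical arrays per sample that were averaged. The labels give neither the promoter of the constructs nor whether a line was a single clone, and they do not say that replicates were separate cultures, so the p-values below reflect only how far these samples spread.

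The genes of the set belong to the G2/M wave of the cell cycle. Their transcripts are low in quiescent and early G1 cells, accumulate through G2 and peak at mitosis, and serum starvation lowers them as cells leave the cycle. In G0 and G1 the DREAM complex holds many of these promoters silent through its MuvB core, which binds a short element near the start site called the cell cycle genes homology region (CHR), and in G2 the same core works with B-MYB and FOXM1 as an activator. NF-Y binds CCAAT boxes, often more than 1, in the same promoters. The summed level of such genes is therefore widely read as a mark of proliferation. In bulk RNA a smaller share of cycling cells and less RNA per cell cannot be told apart, and that holds for every difference below.

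As a check on the samples, 18745 to 20370 of 47323 probes were detected per array and the median array signal ran from 114 to 126.3 units. The basal epithelial keratins KRT5 and KRT14 were detected on all 24 arrays. The fibroblast markers LUM, PDGFRB and THY1 and the immune and endothelial markers PTPRC, CD3E, VWF, CDH5 and KDR were detected on 0 of 24. Of the other markers in those lists, DCN, CD14 and CD68 were detected on 24 arrays, COL1A1 on 18, COL1A2 on 14, COL3A1 on 2 and PECAM1 on 1. The single named ERBB4 probe was detected on 0 of 4 arrays in each of the 6 groups, the ERBB4 lines included, so it gave no check of the line labels. Whether that probe lies within the introduced sequence is not given in the sources used here. In a principal component analysis of all genes, CYT1 with NRG1 sample 1 stood apart, at -18.2 on the first component against -0.57 for sample 2 of that group.

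The mitosis genes were lowest in vector cells, highest in ligand-free cells of the ERBB4 lines, and in between after 2 h of NRG1. Averaged over the 46 genes, the log2 intensity was 8.92 and 8.98 in vector cells without ligand and 8.97 and 8.98 with NRG1. It was 9.14 and 9.19 in CYT1 cells without ligand, and 9.04 and 9.06 with NRG1. In CYT2 cells it was 9.34 and 9.18 without ligand, and 9.11 and 9.09 with NRG1. Thus the 4 vector samples (8.92 to 8.98), the 4 samples of the ERBB4 lines with NRG1 (9.04 to 9.11) and their 4 samples without ligand (9.14 to 9.34) formed ranges that did not overlap. The median of all genes was 7.37 to 7.39 in every sample. CYT2 without ligand sample 1 was the highest of the 12 samples for 36 of the 46 members and exceeded sample 2 of its group for 44, while vector without ligand sample 1 was the lowest for 19. Most medians over the 46 members that rest on those samples are given with and without them. Medians of role groups, other probes and other gene lists are given in full only.

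**Figure D1:**
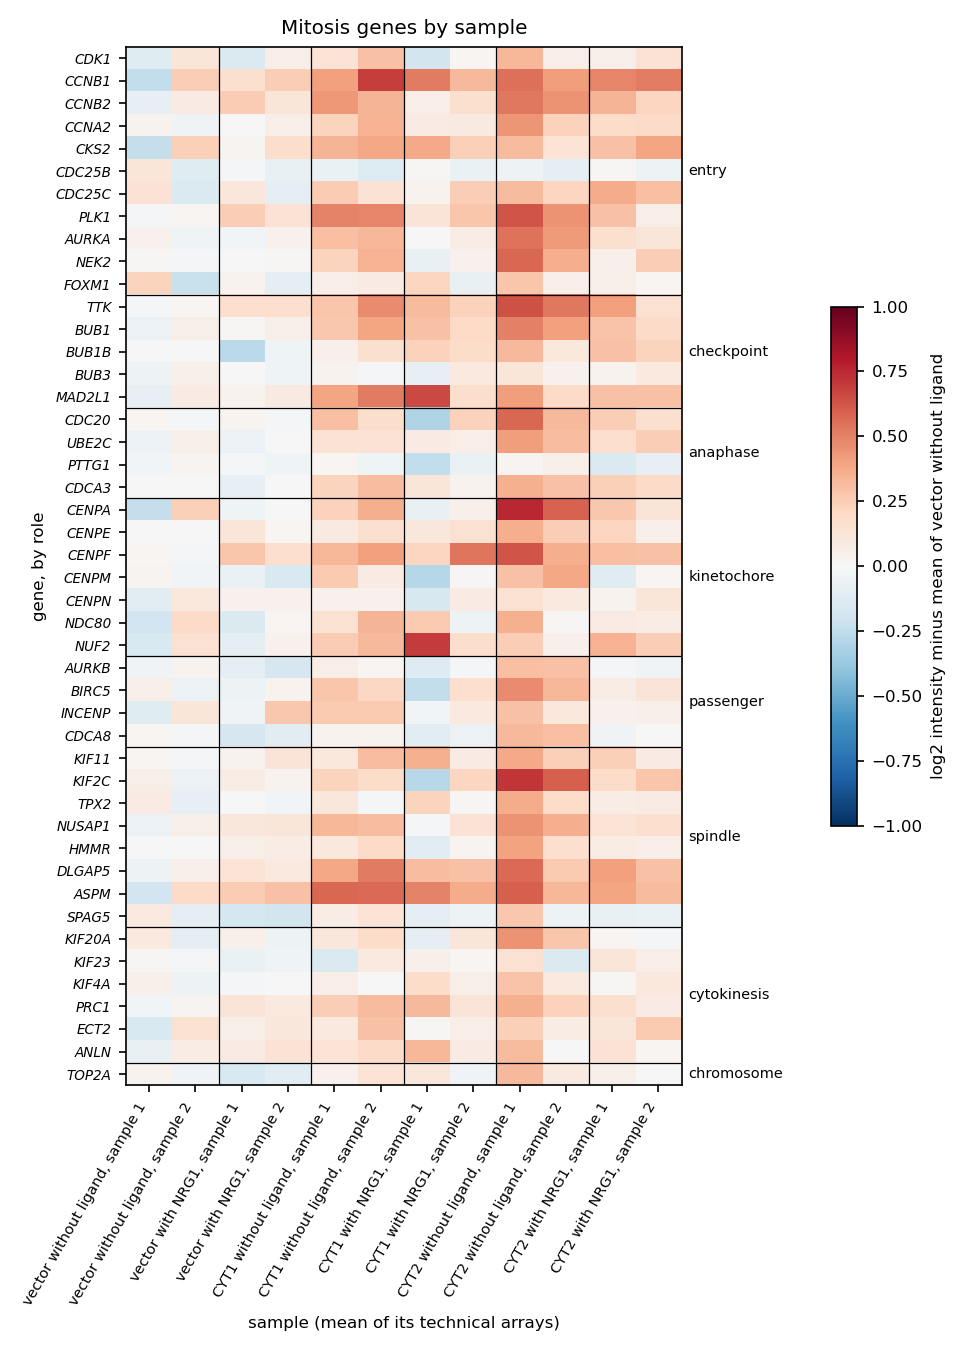
Log2 intensity of each of the 46 mitosis genes (rows, by role) in each of the 12 biological samples (columns), as the difference from the mean of the vector samples without ligand, with red above and blue below it. The columns of CYT1 and CYT2 cells without ligand are mostly red, CYT2 sample 1 most of all, and the columns with NRG1 are paler.

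Without ligand, CYT2 cells held more mitosis mRNA than vector cells. Of the 46 members, 45 were above 0 on the log2 scale and 8 passed the threshold (limma, Benjamini-Hochberg adjusted p under 0.05 over 12357 genes), all 8 higher, which is 17.4% of the set against 0.575% of all genes called higher. The 8 were AURKA, PLK1, NEK2 and CCNB2 of the entry genes, the checkpoint kinases TTK and BUB1, the centromeric histone gene CENPA and the kinesin gene KIF2C. The median difference over the members was 0.31 on the log2 scale, a 1.24-fold difference, against 0.01 over all genes. At an unadjusted p under 0.05, 27 members were higher, against 8.23% of all genes, and 0 were lower, against 8.14%. In 33 members (71.7%) both CYT2 samples lay above both vector samples, against 24.2% of all genes. Leaving out CYT2 sample 1 left a median of 0.23 with 43 members above 0 and 0 past the threshold, and leaving out CYT2 sample 2 gave 0.36 and 0. Without vector sample 1 or vector sample 2 the medians were 0.30 and 0.32, with 1 member past the threshold each time. In these fits the lone sample was assumed to vary like the other groups.

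In CYT1 cells without ligand, compared with the same vector samples, 43 of 46 members were above 0 and the median difference was 0.21, against 0.00 over all genes. No member passed the threshold, where 0.0486% of all genes were called higher. At an unadjusted p under 0.05, 16 members were higher, against 7.33% of all genes. In 33 members both CYT1 samples lay above both vector samples, against 22.5% of all genes. The smallest adjusted p in limma was 0.104, for PLK1. Median differences stayed between 0.20 and 0.24 when each sample in turn was left out, with 2 members past the threshold without vector sample 2 and 0 otherwise.

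**Figure D2:**
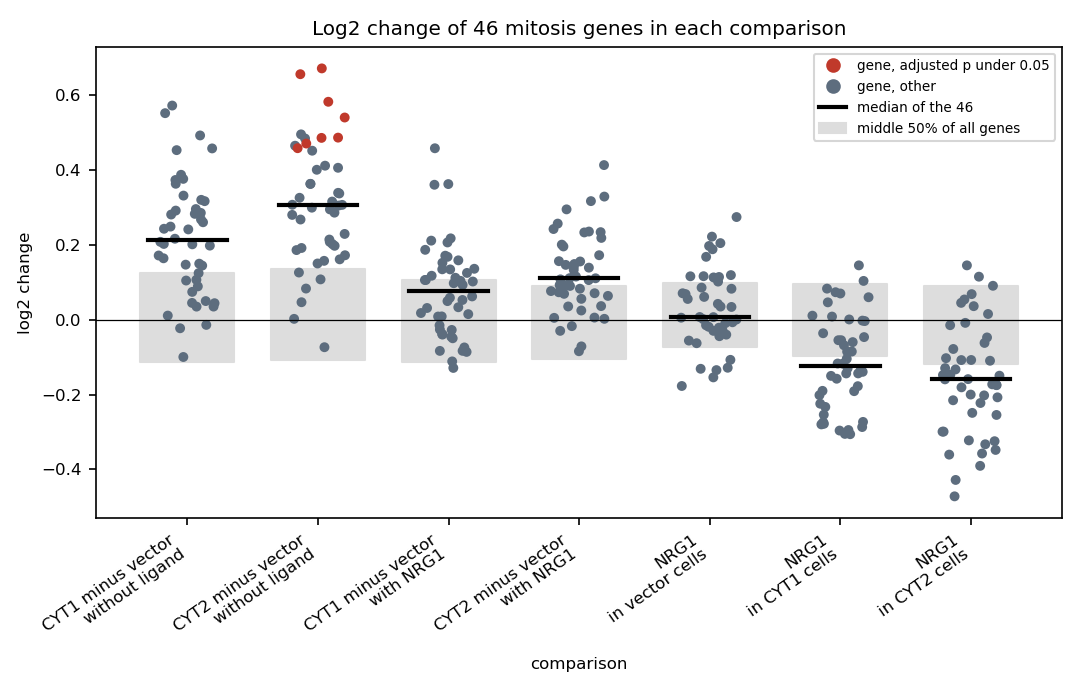
Log2 change of the 46 mitosis genes (points) in each of 7 comparisons, with red points past an adjusted p of 0.05, a black bar at the members' median and a grey box over the middle 50% of all 12357 genes. The medians lie above the grey box in both ERBB4 lines without ligand (0.21 and 0.31) and below it with NRG1 in those lines (-0.12 and -0.16), and the vector line sits near 0.

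Promoter sequence was available from RefSeq (build GRCh38.p14, 250 bases before to 50 after the start) for 38 of the 46 members. The letters TTTGAA or TTCGAA on either strand, common forms of the CHR, occurred in 28 of the 38 windows (73.7%), against 16.6% of 27305 promoters. Within 100 bases before the start or after it they occurred in 25 (65.8% against 7.43%). The letters CCAAT on either strand occurred in 29 (76.3% against 35.7%), and 2 or more copies in 18 (47.4% against 11.3%). A window with both kinds was found for 23 members (60.5% against 6.58%). These matches describe letters, not bound sites. The 150 bases before the start are shown 5′ to 3′ on the gene's strand for the 6 genes called in CYT2 cells that had a window, followed by CDC25B, the member with the lowest difference in that comparison. Capitals mark CHR letters and CCAAT letters, on either strand. PLK1 is at chr16:23678739-23678888 (+), CCNB2 at chr15:59104996-59105145 (+), CENPA at chr2:26785906-26786055 (+), BUB1 at chr2:110678064-110678213 (-), NEK2 at chr1:211675622-211675771 (-), KIF2C at chr1:44739687-44739836 (+) and CDC25B at chr20:3786801-3786950 (+).
PLK1: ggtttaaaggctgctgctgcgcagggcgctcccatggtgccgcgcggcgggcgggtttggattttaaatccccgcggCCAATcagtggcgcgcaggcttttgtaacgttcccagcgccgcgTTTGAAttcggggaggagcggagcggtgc
CCNB2: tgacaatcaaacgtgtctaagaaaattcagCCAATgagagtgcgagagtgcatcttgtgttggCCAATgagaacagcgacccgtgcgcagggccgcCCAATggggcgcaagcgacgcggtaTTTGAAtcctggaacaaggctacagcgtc
CENPA: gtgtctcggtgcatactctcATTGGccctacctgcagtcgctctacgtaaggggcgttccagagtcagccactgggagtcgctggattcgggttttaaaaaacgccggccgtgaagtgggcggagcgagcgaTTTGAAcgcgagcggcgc
BUB1: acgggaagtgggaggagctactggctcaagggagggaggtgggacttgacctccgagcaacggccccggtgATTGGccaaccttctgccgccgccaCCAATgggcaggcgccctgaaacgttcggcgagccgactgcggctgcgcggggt
NEK2: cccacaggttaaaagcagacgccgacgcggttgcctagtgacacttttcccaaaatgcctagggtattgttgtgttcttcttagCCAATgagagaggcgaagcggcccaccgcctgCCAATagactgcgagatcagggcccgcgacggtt
KIF2C: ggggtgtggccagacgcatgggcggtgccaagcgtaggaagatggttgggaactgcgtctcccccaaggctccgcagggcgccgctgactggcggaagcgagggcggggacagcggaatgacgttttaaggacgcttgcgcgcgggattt
CDC25B: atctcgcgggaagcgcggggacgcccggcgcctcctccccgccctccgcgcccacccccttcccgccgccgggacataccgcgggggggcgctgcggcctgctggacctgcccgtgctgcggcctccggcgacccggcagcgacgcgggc
PLK1 and CCNB2 each carry TTTGAA starting 29 bases before the start site, downstream of 1 and 3 CCAAT boxes in the printed stretch, and CENPA carries it 18 bases before the start. The BUB1 and NEK2 stretches hold 2 CCAAT boxes each and no CHR letters, and in BUB1 a CHR match begins 1 base after the start site, beyond the printed bases. Neither kind of letters is found in the windows of KIF2C and CDC25B, of which the first was called higher and the second was not.

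Among the 11 genes of mitotic entry, which encode the kinases, cyclins and transcription factor that drive cells from G2 into mitosis, 4 passed the threshold in CYT2 against vector cells without ligand and the median difference was 0.34. PLK1, the polo-like kinase that promotes entry, centrosome maturation and cytokinesis, had a log2 intensity of 6.54 and 6.59 in vector cells without ligand, 6.81 and 6.71 with NRG1, 7.06 and 7.05 in CYT1 cells without ligand, 6.69 and 6.84 with NRG1, 7.19 and 7.02 in CYT2 cells without ligand, and 6.86 and 6.63 with NRG1. Both ligand-free pairs of the ERBB4 lines lay above every other sample. The gene was 0.54 ± 0.11 (SE) higher in CYT2 than in vector cells (adjusted p = 0.0289 in limma), and 0.49 ± 0.11 in CYT1 cells (adjusted p = 0.104).

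AURKA, the Aurora kinase of centrosomes and spindle poles, measured 10.31 and 10.22 in vector cells without ligand, 10.24 and 10.31 with NRG1, 10.57 and 10.60 in CYT1 cells without ligand, 10.27 and 10.34 with NRG1, 10.81 and 10.69 in CYT2 cells without ligand, and 10.42 and 10.39 with NRG1. The order of the ligand-free groups was vector, CYT1, CYT2, without overlap, and CYT1 cells with NRG1 fell within the range of vector cells or just above it. The rise in CYT2 cells was 0.49 ± 0.09 (1.40-fold, adjusted p = 0.0242 in limma), and the difference in CYT1 cells was 0.32 ± 0.09 (adjusted p = 0.176).

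NEK2, a kinase that separates centrosomes, gave 8.79 and 8.76 in vector cells without ligand and 8.77 and 8.79 with NRG1. In CYT1 cells it gave 8.997 and 9.12 without ligand and 8.71 and 8.82 with it, and in CYT2 cells 9.35 and 9.14 without ligand and 8.83 and 9.02 with it. The 4 vector samples lay close together and below both ligand-free ERBB4 pairs. NEK2 rose by 0.47 ± 0.11 in CYT2 cells (adjusted p = 0.0492 in limma), the call closest to the threshold.

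CCNB2, a B-type cyclin that activates CDK1, gave 9.87 and 10.04 in vector cells without ligand, 10.21 and 10.08 with NRG1, 10.39 and 10.30 in CYT1 cells without ligand, 10.02 and 10.12 with NRG1, 10.48 and 10.40 in CYT2 cells without ligand, and 10.29 and 10.17 with NRG1. Here vector cells with NRG1 lay above vector cells without it. The rise in CYT2 cells was 0.49 ± 0.10 (adjusted p = 0.0334 in limma) and the difference in CYT1 cells 0.39 ± 0.10 (adjusted p = 0.159).

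CKS2, a small CDK-binding subunit, was 10.85 and 11.32 in vector cells without ligand, 11.11 and 11.26 with NRG1, 11.42 and 11.47 in CYT1 cells without ligand, 11.46 and 11.32 with NRG1, 11.40 and 11.22 in CYT2 cells without ligand, and 11.37 and 11.47 with NRG1. Its vector samples without ligand lay 0.47 apart, and the CYT2 pair without ligand overlapped them. CDC25B, a phosphatase that activates cyclin-dependent kinases, was the member with the lowest difference in both lines, at -0.10 in CYT1 and -0.07 in CYT2 cells against vector, with overlapping groups. The remaining entry genes (CDK1, CCNB1, CCNA2, CDC25C and FOXM1) did not pass.

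Among the 5 genes of the spindle assembly checkpoint, which holds anaphase until every chromosome is attached, TTK and BUB1 passed in CYT2 cells and the median difference was 0.30. TTK, the kinase MPS1 that starts checkpoint signalling at kinetochores, had a log2 intensity of 8.16 and 8.20 in vector cells without ligand and 8.35 and 8.35 with NRG1. It was 8.46 and 8.66 in CYT1 cells without ligand and 8.50 and 8.41 with NRG1, and 8.82 and 8.71 in CYT2 cells without ligand and 8.60 and 8.33 with NRG1. The ligand-free pairs ran in the order vector, CYT1, CYT2 without overlap, and the rise in CYT2 cells was 0.58 ± 0.11 (1.50-fold, adjusted p = 0.0242 in limma).

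BUB1, a kinetochore kinase that marks centromeric chromatin, gave 8.12 and 8.24 in vector cells without ligand, 8.20 and 8.24 with NRG1, 8.45 and 8.57 in CYT1 cells without ligand, 8.47 and 8.38 with NRG1, 8.68 and 8.60 in CYT2 cells without ligand, and 8.46 and 8.37 with NRG1. All 8 samples of the ERBB4 lines lay above the 4 vector samples. BUB1 rose by 0.46 ± 0.10 in CYT2 cells without ligand (adjusted p = 0.0334 in limma).

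MAD2L1, the inhibitor MAD2 that blocks CDC20, was 9.43 and 9.59 in vector cells without ligand, 9.55 and 9.60 with NRG1, 9.90 and 10.04 in CYT1 cells without ligand, 10.17 and 9.69 with NRG1, 9.93 and 9.70 in CYT2 cells without ligand, and 9.81 and 9.81 with NRG1. Its highest sample was the CYT1 with NRG1 sample 1 that stood apart over all genes. BUB3, a checkpoint adaptor, gave 11.97 and 12.07 in vector cells without ligand, 12.02 and 11.97 with NRG1, 12.05 and 12.01 in CYT1 cells without ligand, 11.93 and 12.12 with NRG1, 12.14 and 12.06 in CYT2 cells without ligand, and 12.05 and 12.12 with NRG1. Its groups overlapped throughout the ligand-free comparisons, at 0.08 ± 0.10 in CYT2 against vector cells (95% confidence interval -0.13 to 0.30).

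**Figure D3:**
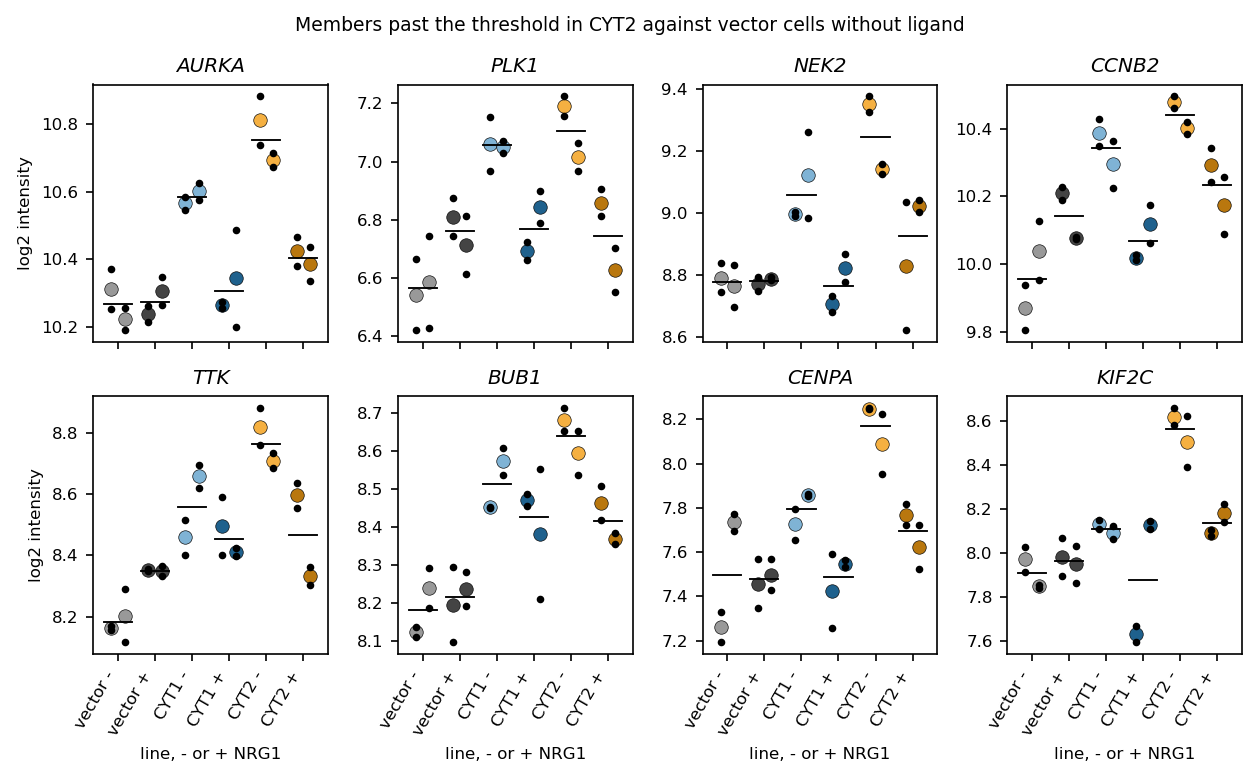
Log2 intensity of the 8 members past the threshold in CYT2 against vector cells without ligand, by line without (-) or with (+) NRG1. Small black points are technical arrays, coloured points the mean of each biological sample and bars the group mean. Axes do not start at 0 and differ between genes, and in all 8 panels both CYT2 samples without ligand lie above both vector samples without ligand.

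Of the 4 anaphase genes 0 passed in CYT2 cells without ligand, where their median difference was 0.34. UBE2C, the ubiquitin-conjugating enzyme of the anaphase-promoting complex, had a log2 intensity of 11.15 and 11.27 in vector cells without ligand, 11.15 and 11.21 with NRG1, 11.36 and 11.35 in CYT1 cells without ligand, 11.30 and 11.28 with NRG1, 11.63 and 11.52 in CYT2 cells without ligand, and 11.38 and 11.45 with NRG1. All 8 samples of the ERBB4 lines lay above the vector samples, and the ligand-free CYT2 difference was 0.36 ± 0.09 (adjusted p = 0.0738 in limma). PTTG1, securin, the inhibitor that holds separase until anaphase, gave 12.26 and 12.32 in vector cells without ligand, 12.27 and 12.24 with NRG1, 12.30 and 12.24 in CYT1 cells without ligand, 12.04 and 12.22 with NRG1, 12.32 and 12.35 in CYT2 cells without ligand, and 12.14 and 12.20 with NRG1. It differed by 0.05 ± 0.09 between CYT2 and vector cells without ligand (95% confidence interval -0.15 to 0.24), and its lowest sample was CYT1 with NRG1 sample 1.

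At the kinetochore and centromere, 1 of 7 members passed and the median difference in CYT2 cells was 0.31. CENPA, the histone H3 variant that marks centromeres, had the largest difference of the 46. Its log2 intensity was 7.26 and 7.73 in vector cells without ligand, 7.46 and 7.50 with NRG1, 7.73 and 7.86 in CYT1 cells without ligand, 7.43 and 7.55 with NRG1, 8.25 and 8.09 in CYT2 cells without ligand, and 7.77 and 7.62 with NRG1. The vector samples without ligand lay 0.47 apart, and both CYT2 samples without ligand lay above all other samples. CENPA rose by 0.67 ± 0.14 (1.59-fold, adjusted p = 0.0312 in limma). The difference was 0.43 without vector sample 1, 0.91 without vector sample 2, 0.59 without CYT2 sample 1 and 0.75 without CYT2 sample 2. Each of these fits left 1 sample in a group.

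CENPF, a large coiled-coil protein of the outer kinetochore, gave 8.46 and 8.43 in vector cells without ligand, 8.72 and 8.61 with NRG1, 8.78 and 8.86 in CYT1 cells without ligand, 8.66 and 8.98 with NRG1, 9.07 and 8.81 in CYT2 cells without ligand, and 8.74 and 8.73 with NRG1. The vector samples without ligand were the lowest of the 12, and the CYT2 difference was 0.49 ± 0.12 (adjusted p = 0.0634 in limma). CENPM, a subunit of the constitutive centromere network, was 8.63 and 8.58 in vector cells without ligand, 8.54 and 8.46 with NRG1, 8.87 and 8.69 in CYT1 cells without ligand, 8.32 and 8.62 with NRG1, 8.90 and 8.99 in CYT2 cells without ligand, and 8.48 and 8.63 with NRG1. Samples with NRG1 lay below those without it in each line. CENPN, which recognises CENPA nucleosomes, ran from 9.12 to 9.44 over the 12 samples and differed by 0.13 between CYT2 and vector cells, with overlapping groups. The other kinetochore members were the motor gene CENPE and the NDC80 complex genes NDC80 and NUF2.

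The 4 genes of the chromosomal passenger complex, which corrects faulty attachments and guides cytokinesis, had a median difference of 0.31 in CYT2 cells without ligand and of 0.14 in CYT1 cells, and 0 passed in either. AURKB, its Aurora kinase, measured 8.65 and 8.72 in vector cells without ligand, 8.59 and 8.52 with NRG1, 8.75 and 8.71 in CYT1 cells without ligand, 8.55 and 8.67 with NRG1, 8.99 and 8.98 in CYT2 cells without ligand, and 8.67 and 8.65 with NRG1. CDCA8, borealin, measured 8.27 and 8.23 in vector cells without ligand, 8.08 and 8.15 with NRG1, 8.29 and 8.28 in CYT1 cells without ligand, 8.15 and 8.19 with NRG1, 8.58 and 8.55 in CYT2 cells without ligand, and 8.21 and 8.25 with NRG1. For both genes the CYT2 pair without ligand stood above the other 10 samples. BIRC5, survivin, gave 9.07 and 8.95 in vector cells without ligand, 8.95 and 9.04 with NRG1, 9.28 and 9.22 in CYT1 cells without ligand, 8.76 and 9.18 with NRG1, 9.48 and 9.34 in CYT2 cells without ligand, and 9.08 and 9.13 with NRG1, with CYT1 with NRG1 sample 1 again the lowest.

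All 8 spindle motor and microtubule-associated members were above 0 in CYT2 cells without ligand, 1 of them past the threshold, and their median was 0.36. KIF2C, a kinesin that depolymerises microtubules at the centromere, had a log2 intensity of 7.97 and 7.85 in vector cells without ligand, 7.98 and 7.95 with NRG1, 8.13 and 8.09 in CYT1 cells without ligand, 7.63 and 8.13 with NRG1, 8.62 and 8.51 in CYT2 cells without ligand, and 8.09 and 8.18 with NRG1. The ligand-free CYT2 pair stood clear of all other samples, and CYT1 with NRG1 sample 1 lay below all of them. KIF2C rose by 0.66 ± 0.14 in CYT2 cells (1.57-fold, adjusted p = 0.0315 in limma), against a difference of 0.20 in CYT1 cells.

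NUSAP1, which bundles spindle microtubules, was 9.89 and 10.001 in vector cells without ligand, 10.05 and 10.06 with NRG1, 10.27 and 10.25 in CYT1 cells without ligand, 9.93 and 10.09 with NRG1, 10.39 and 10.31 in CYT2 cells without ligand, and 10.08 and 10.11 with NRG1. Its CYT2 difference of 0.41 ± 0.10 missed the threshold (adjusted p = 0.054 in limma). ASPM, a spindle pole protein, was 9.27 and 9.65 in vector cells without ligand, 9.72 and 9.75 with NRG1, 10.04 and 10.03 in CYT1 cells without ligand, 9.96 and 9.83 with NRG1, 10.06 and 9.79 in CYT2 cells without ligand, and 9.86 and 9.78 with NRG1. It had the largest CYT1 difference of the set, 0.57 ± 0.13 (adjusted p = 0.106), and all 8 samples of the ERBB4 lines lay above the 4 vector samples. DLGAP5, which stabilises kinetochore fibres, gave 8.84 and 8.94 in vector cells without ligand, 9.03 and 8.99 with NRG1, 9.28 and 9.41 in CYT1 cells without ligand, 9.20 and 9.19 with NRG1, 9.45 and 9.15 in CYT2 cells without ligand, and 9.30 and 9.18 with NRG1, again with all ERBB4 samples above all vector samples.

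The 6 genes of the central spindle and cytokinesis had the smallest role median in CYT2 cells without ligand among groups of more than 1 gene, 0.18, and 0 passed. PRC1, which crosslinks the antiparallel microtubules of the midzone, was 10.44 and 10.50 in vector cells without ligand, 10.60 and 10.57 with NRG1, 10.72 and 10.78 in CYT1 cells without ligand, 10.80 and 10.60 with NRG1, 10.83 and 10.70 in CYT2 cells without ligand, and 10.63 and 10.55 with NRG1. Its ligand-free ERBB4 samples lay above all vector samples. KIF23, a kinesin of the centralspindlin complex, differed by 0.00 ± 0.12 between CYT2 and vector cells. TOP2A, the topoisomerase that decatenates sister chromatids and the only member for chromosome structure, gave 10.52 and 10.45 in vector cells without ligand, 10.34 and 10.38 with NRG1, 10.53 and 10.62 in CYT1 cells without ligand, 10.60 and 10.46 with NRG1, 10.81 and 10.58 in CYT2 cells without ligand, and 10.54 and 10.49 with NRG1. The CYT2 difference without ligand was 0.21, with both samples above the vector pair.

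After 2 h of NRG1 the members of vector cells showed no common direction, while those of both ERBB4 lines were mostly lower. In vector cells 26 were above 0 and 20 below, the median was 0.01 against 0.01 over all genes, and 0 passed, with 0 of all genes called (0%) and 0 members at an unadjusted p under 0.05 in either direction, against 2.39% of all genes higher and 1.66% lower. The vector median stayed between 0.01 and 0.05 when each sample in turn was left out. In CYT1 cells 36 of 46 were below 0 and the median was -0.12, against -0.01 over all genes. No member passed there, where 0% of genes were called lower, and 9 were lower at an unadjusted p under 0.05 against 3.14% of all genes. Without CYT1 with NRG1 sample 1, the sample that stood apart, the median was -0.13 and again 0 passed. In CYT2 cells 38 of 46 were below 0 and the median was -0.16, against -0.02. Again 0 passed, where 0.291% of all genes were called lower, and 13 members were lower at an unadjusted p under 0.05 against 4.76%. In 28 members (60.9%) both CYT2 samples with NRG1 lay below both without it, against 27.4% of all genes. In CYT1 cells the same held for 21 members (45.7%), against 17.4% of all genes. The ligand-free CYT2 samples enter both the comparison with vector cells and the NRG1 comparison, and the same holds for CYT1, so a high value in those samples moves both. Without CYT2 without ligand sample 1 the NRG1 median in CYT2 cells was -0.07, and without sample 2 it was -0.24.

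Averaged over both ERBB4 lines, 3 members fell with NRG1, all of them among the 40 below 0, which is 6.52% of the set against 0.631% of all genes called lower. AURKA fell by 0.31 ± 0.07 on the log2 scale (adjusted p = 0.0244 in limma), CENPM by 0.35 ± 0.08 (adjusted p = 0.0463) and PLK1 by 0.32 ± 0.08 (adjusted p = 0.0474). For each of the 3 genes both samples with NRG1 lay below both samples without it in either ERBB4 line. The next by p were NEK2 at -0.31 (adjusted p = 0.0566) and CENPA at -0.39 (adjusted p = 0.0638). Unadjusted, 19 members were lower at p under 0.05, against 6.73% of all genes. These calls were lost or changed in number when single ERBB4 samples were left out, which also left only 1 sample in a group. The median stayed between -0.17 and -0.08.

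Within a single line, the smallest NRG1 adjusted p was 0.0952 in CYT2 cells, for CDCA8 at -0.33 ± 0.09 (95% confidence interval -0.52 to -0.14), followed by AURKA at -0.35 and AURKB at -0.32. In CYT1 cells it was 0.50, for AURKA at -0.28 ± 0.09 (limma), followed by NEK2 at -0.30 and NUSAP1 at -0.25. In vector cells the members with the smallest p were ASPM, CCNB2 and CENPF, which lay 0.27, 0.19 and 0.22 higher with NRG1. Tested as a difference of differences, the NRG1 effect in CYT2 minus that in vector cells had a median of -0.19 over the members with 38 below 0, and 0 passed, where 0.243% of all genes did. Unadjusted, 9 members were lower at p under 0.05, against 3.93% of all genes. Without CYT2 without ligand sample 1 the median of this difference was -0.13, and without sample 2 it was -0.27. PLK1 had the smallest p in that test, at -0.56 ± 0.16 (adjusted p = 0.263 in limma). The same test in CYT1 cells had a median of -0.14 and 0 members past the threshold, with 0% of all genes called and 4 members lower at an unadjusted p under 0.05 against 2.87% of all genes. That CYT1 median was -0.10 without vector without ligand sample 1 and -0.19 without sample 2. No single member was thus shown to respond to NRG1 differently in an ERBB4 line than in vector cells. Between CYT1 and CYT2 cells the NRG1 effect differed by a median of 0.02, and 0 members passed, where 0.00809% of all genes did. That median had no settled sign, at -0.04 without CYT2 without ligand sample 1 and 0.13 without sample 2. Unadjusted, 0 members differed at p under 0.05, against 1.87% of all genes higher and 1.75% lower in CYT1 cells. For AURKA the 2 lines' NRG1 effects were -0.28 and -0.35.

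In the presence of NRG1 most members lay above vector cells in both ERBB4 lines, by smaller amounts than without ligand. CYT2 minus vector cells gave a median of 0.11 with 42 members above 0, and CYT1 minus vector cells 0.08 with 33 above 0, against -0.00 over all genes in both. No member passed in either, where 0.121% and 0% of all genes were called higher. At an unadjusted p under 0.05, 4 and 3 members were higher (8.7% and 6.52%), against 4.07% and 4.01% of all genes. Without CYT1 with NRG1 sample 2 the CYT1 median was 0.05. BUB1B, the checkpoint protein BUBR1, had the smallest p in both, at 0.41 ± 0.11 in CYT2 (adjusted p = 0.184 in limma) and 0.36 ± 0.11 in CYT1 cells (adjusted p = 0.41), while the largest CYT1 difference was that of NUF2, 0.46. The lowest BUB1B sample was vector with NRG1 sample 1, at 6.38, against 6.60 for sample 2 of that group and 6.82 to 6.93 in the 4 ERBB4 samples with NRG1.

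Averaged over both ligand conditions, CYT2 cells exceeded vector cells in 7 members past the threshold, 15.2% of the set against 0.777% of all genes called higher, with a median of 0.22. They were CENPA (0.44 ± 0.10, adjusted p = 0.0382 in limma), KIF2C (0.41 ± 0.10), TTK (0.35 ± 0.08), BUB1 (0.33 ± 0.07), AURKA (0.31 ± 0.07), UBE2C (0.30 ± 0.07) and CDCA3 (0.29 ± 0.07), a cofactor in the degradation of the mitosis inhibitor WEE1. For CENPA and TTK the 4 CYT2 and 4 vector samples overlapped, and for the other 5 they did not. Over the whole set, all 4 CYT2 samples lay above all 4 vector samples in 17 of the 46 members (37%), against 5.07% of all genes. Leaving out 1 sample at a time left between 0 and 4 of the set past the threshold, with medians from 0.20 to 0.25. In CYT1 cells the median was 0.13 with 43 members above 0, and 0 passed, where 0.291% of all genes were called higher. Unadjusted, 15 members were higher at p under 0.05, against 8.47% of all genes. The members with the smallest p were MAD2L1 (0.41 ± 0.10, adjusted p = 0.092), DLGAP5 (0.32 ± 0.08, adjusted p = 0.093) and ASPM (0.37 ± 0.09, adjusted p = 0.093), and in 12 of the 46 members, these 3 included, all 4 CYT1 samples lay above all 4 vector samples, against 4.43% of all genes.

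The 2 isoforms were compared directly over both ligand conditions. The median CYT1 minus CYT2 difference was -0.07, with 38 of 46 members below 0, and 0 passed, as for all genes (0%). Without CYT2 without ligand sample 1 the median was -0.03, and without sample 2 it was -0.11. The 3 members with the smallest p were KIF2C at -0.36 ± 0.10 (95% confidence interval -0.57 to -0.14, adjusted p = 0.512 in limma), CENPA at -0.29 (-0.51 to -0.08) and CDCA8 at -0.17 (-0.31 to -0.04). Their groups overlapped. Unadjusted, 6 members were lower in CYT1 cells at p under 0.05, against 4.25% of all genes, and after adjustment no difference between the isoforms was detectable in these genes with 4 samples a line.

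The array carries further probes for 21 of the members, 25 in all. In CYT2 against vector cells without ligand 24 of the 25 had the sign of the brightest probe, with a median of 0.31 against 0.30 for the brightest probes of the same genes. The other AURKA probe gave 0.51 ± 0.10 and passed over all 23019 kept probes (adjusted p = 0.037 in limma), as did the brightest probes of AURKA, TTK, PLK1, CENPA and KIF2C. The other CENPA probe read 0.36 and the other NEK2 probe 0.34, lower than the 0.67 and 0.47 of the brightest ones, and neither passed. Probes disagreed for CENPM, where 2 other probes gave 0.33 and -0.01 against 0.34. For NRG1 the sign matched for 16 of the 25 in both ERBB4 lines together, 17 in CYT2 cells and 19 in CYT1 cells, with medians of -0.13, -0.14 and -0.13 for the other probes against -0.11, -0.15 and -0.14 for the brightest ones. The other AURKA probe gave -0.26 over both ERBB4 lines and did not pass (adjusted p = 0.124 in limma), and the 3 CENPM probes gave -0.35, -0.35 and -0.27. The other CENPA probe gave -0.35 there and passed (adjusted p = 0.0265 in limma). Other probes lay below 0 and the brightest above it for NUF2 (-0.30 against 0.14), CDC25C (-0.27 and -0.20 against 0.004) and CKS2 (-0.06 against 0.03). The reverse held for INCENP (0.03 against -0.19), MAD2L1 (0.14 against -0.02) and BUB3 (0.03, 0.09 and 0.07 against -0.01).

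**Figure D4:**
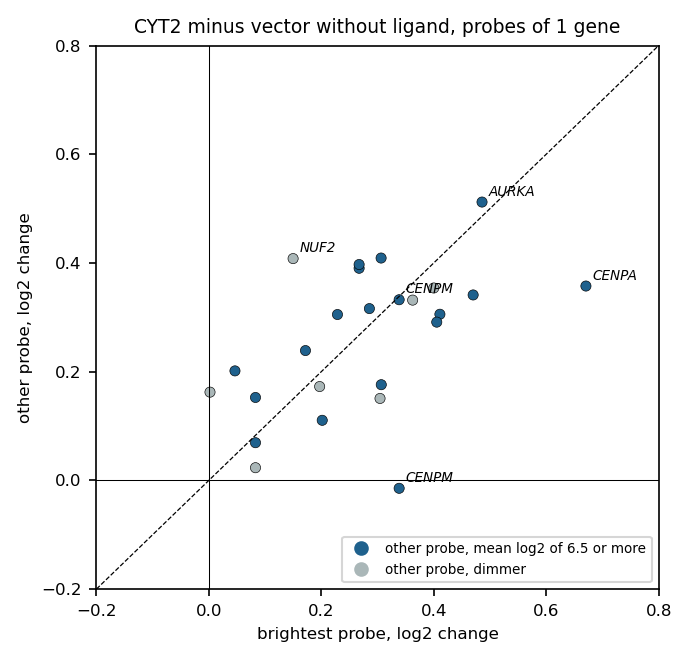
Log2 difference between CYT2 and vector cells without ligand for each of the 25 other probes (vertical axis) against the brightest probe of the same gene (horizontal axis), with the dashed line marking equality and grey points marking 7 other probes with a mean log2 intensity under 6.5. Of the 25 points, 24 lie above 0, and 1 CENPM probe lies at -0.01.

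Across the 12 samples most members varied together. The median Pearson correlation over the 1035 pairs of members was 0.55, and 39 of 46 members correlated above 0.5 with the mean of the others. CCNA2, the cyclin of S phase and G2, followed that mean most closely, at 0.95. CDC25B was the only member with a negative value, -0.42. These correlations describe samples that share their groups and arrays. Within groups, the replicates differed by a median of 0.06 to 0.16 over the members, and the direction was most uniform in CYT2 cells without ligand. In CYT1 cells with NRG1 the replicates disagreed most in both directions. There sample 1 exceeded sample 2 by 0.53 for NUF2 (7.41 against 6.88) and by 0.48 for MAD2L1 (10.17 against 9.69), and lay below it by 0.53 for CDC20, the activator of the anaphase-promoting complex (11.38 against 11.92), by 0.50 for KIF2C and by 0.42 for BIRC5. These 5 genes were chosen after their values were seen.

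Genes of neighbouring pathways were set beside the members. Of 26 further mitosis genes (cohesin, condensin, anaphase-promoting complex, separase and kinetochore genes) 24 were measured. Their median in CYT2 against vector cells without ligand was 0.24 with 22 above 0, and 1 rose, where 0.575% of all genes did, SPC24 of the NDC80 complex. It measured 8.68 and 8.85 in vector cells and 9.29 and 9.15 in CYT2 cells without ligand, a rise of 0.45 ± 0.10 (adjusted p = 0.0466 in limma), and its groups did not overlap. Of 29 genes of DNA replication and G1/S, 28 were measured, with a median of 0.11, 23 above 0 and 0 past the threshold. With NRG1 in CYT2 cells 23 of the 24 further mitosis genes and 24 of the 28 replication genes were below 0, with medians of -0.10 and -0.13.

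Of the 28 replication genes 1 fell with NRG1 in CYT2 cells, against 0.291% of all genes, E2F2, which encodes an activating E2F factor. E2F2 went from 8.76 and 8.94 without ligand to 8.17 and 7.94 with NRG1, a fall by 0.80 ± 0.14 on the log2 scale (adjusted p = 0.0116 in limma), and the groups did not overlap. In vector cells it measured 8.88 and 8.89 without ligand and 8.78 and 9.01 with NRG1, which overlap. Without ligand E2F2 was 8.53 and 8.55 in CYT1 cells, below both vector samples, while CYT2 cells overlapped vector cells. With NRG1 it was called lower in CYT2 than in vector cells (-0.84 ± 0.14, adjusted p = 0.019 in limma). Averaged over ligand, it was called lower in CYT1 than in vector cells (-0.53 ± 0.10, adjusted p = 0.0257). The same held in CYT2 cells (-0.44 ± 0.10, adjusted p = 0.0368). These differences were opposite in sign to the member medians. Of 11 measured CDK inhibitor and G1 cyclin genes, 2 fell with NRG1 in CYT2 cells, where 0.291% of all genes were called lower. CDKN1B, the inhibitor p27, went from 8.13 and 8.11 to 7.52 and 7.43, by 0.64 ± 0.11 (adjusted p = 0.0133). TOB1, an antiproliferative regulator of mRNA decay, went from 9.40 and 9.42 to 9.02 and 8.84, by 0.48 ± 0.11 (adjusted p = 0.0442). In vector cells TOB1 also lay lower with NRG1, at 8.96 and 9.04 against 9.32 and 9.16, without overlap, and did not pass. CDKN1B overlapped there, at 7.66 and 7.93 without ligand and 7.58 and 7.80 with NRG1. Among 13 genes of the DREAM and MuvB complexes and E2F repressors, 1 rose, E2F5, from 7.54 and 7.50 to 7.91 and 8.05 (0.46 ± 0.10, adjusted p = 0.0425), where 1.36% of all genes were called higher, and their median was -0.05. In vector cells E2F5 also lay higher with NRG1, at 7.71 and 7.73 against 7.65 and 7.45, and did not pass. The NRG1 effect in CYT2 minus vector cells was -0.81 for E2F2, -0.54 for CDKN1B, -0.24 for TOB1 and 0.28 for E2F5. None of these passed.

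In CYT2 against vector cells without ligand, basal epithelial markers lay on the opposite side of 0 from most members. Of 10 listed, 7 were measured, and all 7 lay below 0 in CYT2 against vector cells without ligand, with a median of -0.24 and 0 past the threshold. Their mean log2 intensity without ligand was 11.54 and 11.29 in vector, 11.30 and 11.24 in CYT1 and 11.16 and 11.19 in CYT2 cells. With NRG1 it was 11.40 and 11.36 in vector, 11.54 and 11.33 in CYT1 and 11.34 and 11.29 in CYT2 cells. By group mean, CYT1 cells with NRG1 (11.44) lay above vector cells with NRG1 (11.38), the same side as the member median. LAMB3, a laminin subunit, rose with NRG1 over both ERBB4 lines by 0.55 ± 0.12 (adjusted p = 0.0346 in limma), from 11.40 to 11.92 in the 4 samples without ligand to 12.11 to 12.32 in the 4 with it. Over the 12 samples the basal mean and the member mean had a correlation of -0.77, and the number of detected probes and the member mean one of -0.20. The part of these markers in the differences between lines was not tested.

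**Figure D5:**
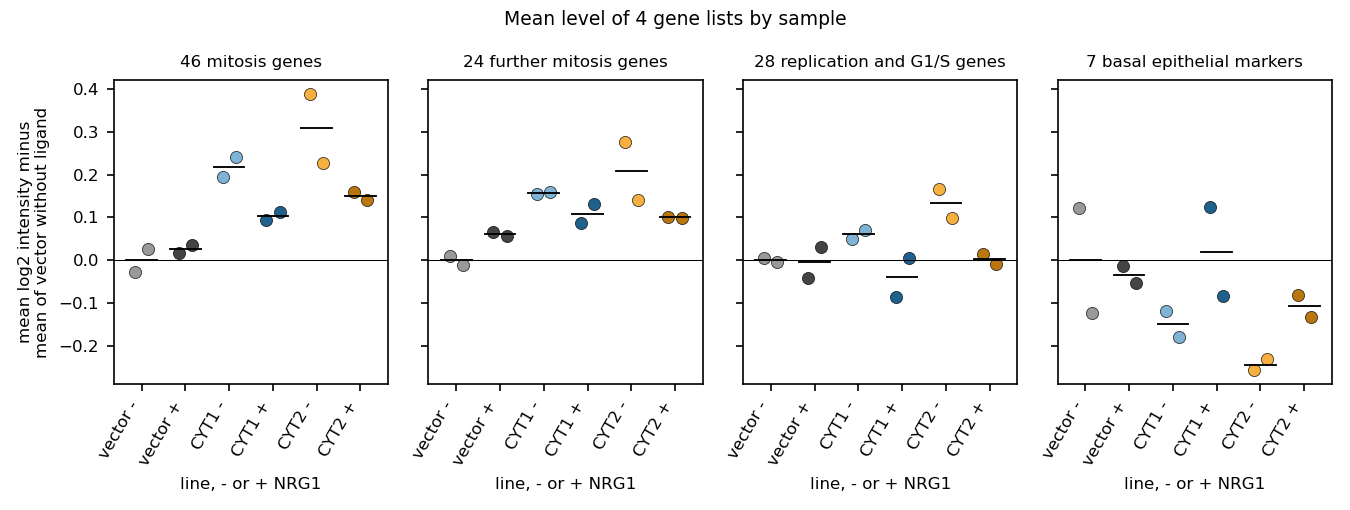
Mean log2 intensity of 4 gene lists in each biological sample (points, with bars at group means) by line without (-) or with (+) NRG1, as the difference from the mean of the vector samples without ligand. By group mean, the 46 members and the 24 further mitosis genes are highest in CYT2 cells without ligand, and the 7 basal epithelial markers are lowest there. Without ligand, the member mean of CYT2 sample 2 lies between those of the CYT1 samples (log2 intensity 9.18 against 9.14 and 9.19). Its mean of further mitosis genes lies below both (8.385 against 8.398 and 8.404).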

How the data were processed

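RNA of the 12 samples was measured on Illumina BeadChips. Per the file headers, the deposited scanner table pairs an intensity (mean bead signal) with a detection p-value, for 47323 probes on 24 arrays. The authors' value table was deposited as log2 values that equal the log2 of those signals to within 5e-09, so it is not normalized. The scanner was not given in the sources used here.

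Background correction and quantile normalization used the neqc function of limma 3.58.1 under R 4.3.3, at offset 16, with negative controls inferred from detection p-values. Probes with a detection p under 0.05 on at least 4 arrays were kept (23019, of which 16620 carried 1 gene symbol from the platform annotation), and each gene was read from its brightest probe (12357 genes). Of the 47323 probes, 8 had several symbols and 17202 were not listed, and these were not named. Technical arrays were averaged, giving n = 2 per group. One linear model of the 6 group means (lmFit, eBayes, 6 residual and 6.31 prior degrees of freedom) gave each of 14 comparisons, with Benjamini-Hochberg adjustment over all genes and a threshold of 0.05. The script was tested on simulated data. The number of arrays limits the precision. No chip, slide or scan date was named, so none was tested as a batch.

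The members and the other gene lists were chosen with earlier results of these data known. Values in every sample are given for up to 6 members past the threshold per comparison, by size of change, for the 3 with the smallest p where fewer than 3 passed in the single-line NRG1 and ligand-averaged comparisons, and for the brightest member of each role. Up to 3 called genes were named per further list. Other genes named were chosen after their values were seen. Alternatives covered background correction, normalization, filter, probe choice, technical arrays, the model and left-out samples. Promoters were taken from RefSeq (GRCh38.p14).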

Additional observations from a re-analysis of the deposited data

How the results depend on the processing

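The counts of members past the threshold depended on the settings. CYT2 minus vector without ligand went from 8 to 15 with normexp (offset 50) and quantile normalization, 16 with the authors' values quantile normalized, 0 with those values not normalized, 5 over all probes, 3 and 0 with only the first or second technical arrays, 22 with all arrays and the sample as a random block, 1 with only the compared groups fitted, and 0 to 1 with each sample left out. In the same order CYT2 minus vector averaged over ligand went from 7 to 14, 14, 0, 1, 2, 0, 20, 4 and 0 to 4, and 11 with trended robust variances. NRG1 in both ERBB4 lines went from 3 to 9 (normexp), 9 (quantile), 0 (not normalized), 1 and 0 (technical arrays), 14 (random block), 5 (trended robust) and 0 to 9 (samples left out). Over all probes, of the 3 members called for NRG1 in both ERBB4 lines, the brightest AURKA probe passed (adjusted p = 0.0439 in limma). The brightest probes of CENPM (adjusted p = 0.0717 in limma) and PLK1 (adjusted p = 0.0765) did not. NRG1 in CYT2 cells went from 0 to 3 (normexp), 3 (quantile), 1 (no detection filter), 1 (first technical arrays), 5 (random block) and 1 (trended robust). CYT1 minus vector without ligand went from 0 to 1 (normexp), 12 (random block), 1 (trended robust) and 0 to 2 (samples left out). Averaged over ligand it went from 0 to 4 (normexp), 2 (quantile), 10 (random block), 3 (trended robust) and 0 to 3 (samples left out). With samples left out, CYT1 minus vector with NRG1 ranged from 0 to 2 and CYT1 minus CYT2 from 0 to 1. The cause of these changes was not tested, beyond the fewer samples or genes that some settings use. Over 12 settings the medians ran from 0.25 to 0.32 in CYT2 minus vector without ligand, 0.16 to 0.33 in CYT1 minus vector without ligand, -0.14 to -0.01 with NRG1 in both ERBB4 lines, -0.08 to 0.02 in CYT1 minus CYT2 averaged over ligand, and -0.10 to 0.04 for the difference in NRG1 effect between CYT1 and CYT2. The NRG1 median in CYT2 cells reversed to 0.0308 with the authors' values not normalized. Relative to the median of all genes it ran from -0.15 to -0.07, and CYT1 minus CYT2 from -0.07 to -0.03. The main model treated samples as unpaired. Correlations by replicate number ran from -0.17 to 0.23 between groups. Between cells without and with NRG1 they were 0.23 in vector, -0.17 in CYT1 and 0.18 in CYT2 cells. With the replicate block, CYT2 minus vector without ligand gave 7, averaged over ligand 6, and NRG1 in both ERBB4 lines 1, and with the numbers of CYT1 with NRG1 crossed, chosen after seeing the data, NRG1 in CYT1 cells gave 0 members, as it did uncrossed.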
